A study of Homo sapiens with 24 samples.

Results

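Oxidative phosphorylation is carried out in the inner mitochondrial membrane by 5 multi-subunit complexes. Complexes I to IV pass electrons from NADH and succinate to oxygen, complexes I, III and IV pump protons as they do so, and complex V, the ATP synthase, uses the returning protons to make ATP. A few core subunits are encoded by the mitochondrial genome, and the rest are nuclear genes that must be transcribed in step with each other. In pancreatic beta cells the ATP made from glucose closes potassium channels and sets off insulin release. Trimethylation of histone H3 at lysine 4 (H3K4me3) marks the nucleosomes around the start sites of transcribed genes and of many CpG-rich promoters.

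The genes described here are the nuclear-encoded subunits of these complexes. They were taken as the autosomal protein-coding genes of GENCODE release 44 whose symbols begin with NDUFA, NDUFB, NDUFC, NDUFS or NDUFV followed by digits alone, are SDHA to SDHD, or begin with UQCR, COX4 to COX8, ATP5F, ATP5M or ATP5P. Read-through genes were left out. The rule gave 82 genes of 18498, with 34 in complex I, 4 in complex II, 9 in complex III, 17 in complex IV and 18 in complex V. NDUFA4, named for complex I, was counted with complex IV, where its protein is now placed. The promoter value of a gene was the highest mean H3K4me3 signal among regions that overlapped a window of 2 kb to each side of its annotated start sites.

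H3K4me3 was profiled by MINT-ChIP, a multiplexed ChIP-seq method in which chromatin is cut to nucleosomes with MNase, barcoded per sample and pooled before immunoprecipitation. The cells were EndoC-βH3, a single human beta cell line of fetal pancreas origin, labelled as wild type, that was immortalized with hTERT and the SV40 large T antigen. The 4 non-senescent samples were dividing cells that kept both transgenes. The 4 senescent samples had received 4-hydroxytamoxifen for 3 weeks, which activates a Cre recombinase carried by the line and removes the immortalizing genes. Each sample held 500000 cells, and the 16 samples of the series for other histone marks were not analysed here.

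The deposited H3K4me3 table held 97545 regions of hg38 with 1 value per region that could be used here, the authors' mean of normalized read counts over the 8 samples. This value is termed the signal below. It pools both states and carries no spread between samples, so that no difference between non-senescent and senescent cells was computed, no test was made and the depth of each sample is unknown. Signal counts reads over a whole region and therefore grows with its width, and levels were compared between genes as signal per kb of region. Values are given without an error for this reason.

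The labelled cell type was compared with its markers. Of 19 beta cell markers 18 had a promoter region, with a median of 25.3 signal per kb. Of these 18, 14 lay above the median of all autosomal protein-coding promoters (19.3 per kb). They included NKX2-2 (25.4 per kb), ISL1 (38.1 per kb), PAX6 (27.8 per kb) and PCSK2 (43.9 per kb). The channel genes ABCC8 (11.1 per kb) and KCNJ11 (10.6 per kb) lay below that median. The hormone gene INS had 14.0 signal per kb and IAPP 7.56, while MAFA had no region within the window in the table analysed here. Markers of alpha and delta cells had a region in 5 of 6 cases, with a median of 12.2 signal per kb and a range from 6.99 at GCG to 31.5 at IRX2. Exocrine and duct markers had a region in 5 of 10, with a median of 7.09 signal per kb and the highest value, 22.9, at MUC1. Mesenchymal, immune and endothelial markers also had one in 5 of 10, with a median of 7.60 signal per kb and the highest value, 31.9, at CD68. Hepatocyte and muscle markers had one in 2 of 7, at 5.33 and 7.96 signal per kb.

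The 120 bases before the MANE Select start site are shown for the gene with the highest signal in each complex, followed by the genes with the highest signal that carry a YY1 or an ERR motif there (the highest with an NRF1 motif was NDUFS6, already shown for complex I). Each is read 5′ to 3′ along the gene's own strand in hg38, and capitals mark a match to a motif on either strand. Within these 120 bases a YY1 motif was found at only 1 of the 82 genes and an ERR motif at 2. The motifs are described with the promoter sequences further on. NDUFS6 lies at chr5:1801287-1801406 on the plus strand, SDHC at chr1:161314261-161314380 on the plus strand, UQCRFS1 at chr19:29213152-29213271 on the minus strand, COX7A2L at chr2:42361218-42361337 on the minus strand and ATP5F1E at chr20:59032336-59032455 on the minus strand. NDUFB5 lies at chr3:179604674-179604793 and ATP5MG at chr11:118401486-118401605, both on the plus strand. UQCRFS1 stands in place of UQCRB, which had the highest signal of complex III and whose sequence was not used here.
NDUFS6: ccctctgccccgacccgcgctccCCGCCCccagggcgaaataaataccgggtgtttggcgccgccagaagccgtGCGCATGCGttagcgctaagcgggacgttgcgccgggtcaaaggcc
SDHC: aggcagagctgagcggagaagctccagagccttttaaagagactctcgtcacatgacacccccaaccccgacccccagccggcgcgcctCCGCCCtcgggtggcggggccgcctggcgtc
UQCRFS1: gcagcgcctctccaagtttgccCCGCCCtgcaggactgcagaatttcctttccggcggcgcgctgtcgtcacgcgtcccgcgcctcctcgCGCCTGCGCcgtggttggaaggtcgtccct
COX7A2L: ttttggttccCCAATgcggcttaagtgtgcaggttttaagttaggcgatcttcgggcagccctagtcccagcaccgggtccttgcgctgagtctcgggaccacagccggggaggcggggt
ATP5F1E: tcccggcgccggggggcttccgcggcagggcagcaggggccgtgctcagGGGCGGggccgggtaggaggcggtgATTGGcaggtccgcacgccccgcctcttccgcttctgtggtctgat
NDUFB5: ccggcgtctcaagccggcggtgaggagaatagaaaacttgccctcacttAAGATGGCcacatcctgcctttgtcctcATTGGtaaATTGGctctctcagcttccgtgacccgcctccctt
ATP5MG: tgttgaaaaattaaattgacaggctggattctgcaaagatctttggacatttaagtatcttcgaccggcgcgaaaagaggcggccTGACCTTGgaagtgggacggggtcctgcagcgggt

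The NDUFS6 sequence holds an NRF1 motif 46 to 38 bases before the start and a GC box at 97 to 92. The UQCRFS1 sequence has the same pair, with the NRF1 motif at 30 to 22 bases and the GC box at 98 to 93. SDHC has a GC box at 31 to 26 bases, COX7A2L a CCAAT box at 110 to 106, and ATP5F1E a GC box at 71 to 66 with a CCAAT box at 46 to 42. In NDUFB5 the YY1 motif lies at 71 to 64 bases, upstream of CCAAT boxes at 43 to 39 and 35 to 31. The ERR motif of ATP5MG lies at 35 to 28 bases.

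An H3K4me3 region was found at 74 of the 82 genes (90.2%), compared with 14167 of 18498 autosomal protein-coding genes (76.6%). All 34 genes of complex I and all 4 of complex II had one, as did 8 of 9 in complex III, 11 of 17 in complex IV and 17 of 18 in complex V. The 8 genes without a region were the COX subunit isoforms COX4I2, COX6A2, COX6B2, COX7A1, COX7B2 and COX8C and the intronless copies UQCRHL and ATP5MGL. The median signal of the 74 promoters was 69.1, with quartiles of 45.1 and 105 and a range of 2.28 to 1011. The median over the 14167 promoters was 50.2, with quartiles of 21.5 and 89.7. Per kb the difference was smaller, at 22.6 for oxidative phosphorylation genes (quartiles 17.9 and 31.1) and 19.3 for all promoters (lower quartile 12.5). Of the 74 genes, 51 lay above the median of all promoters in signal, and 51 did so in signal per kb.

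**Figure D1:**
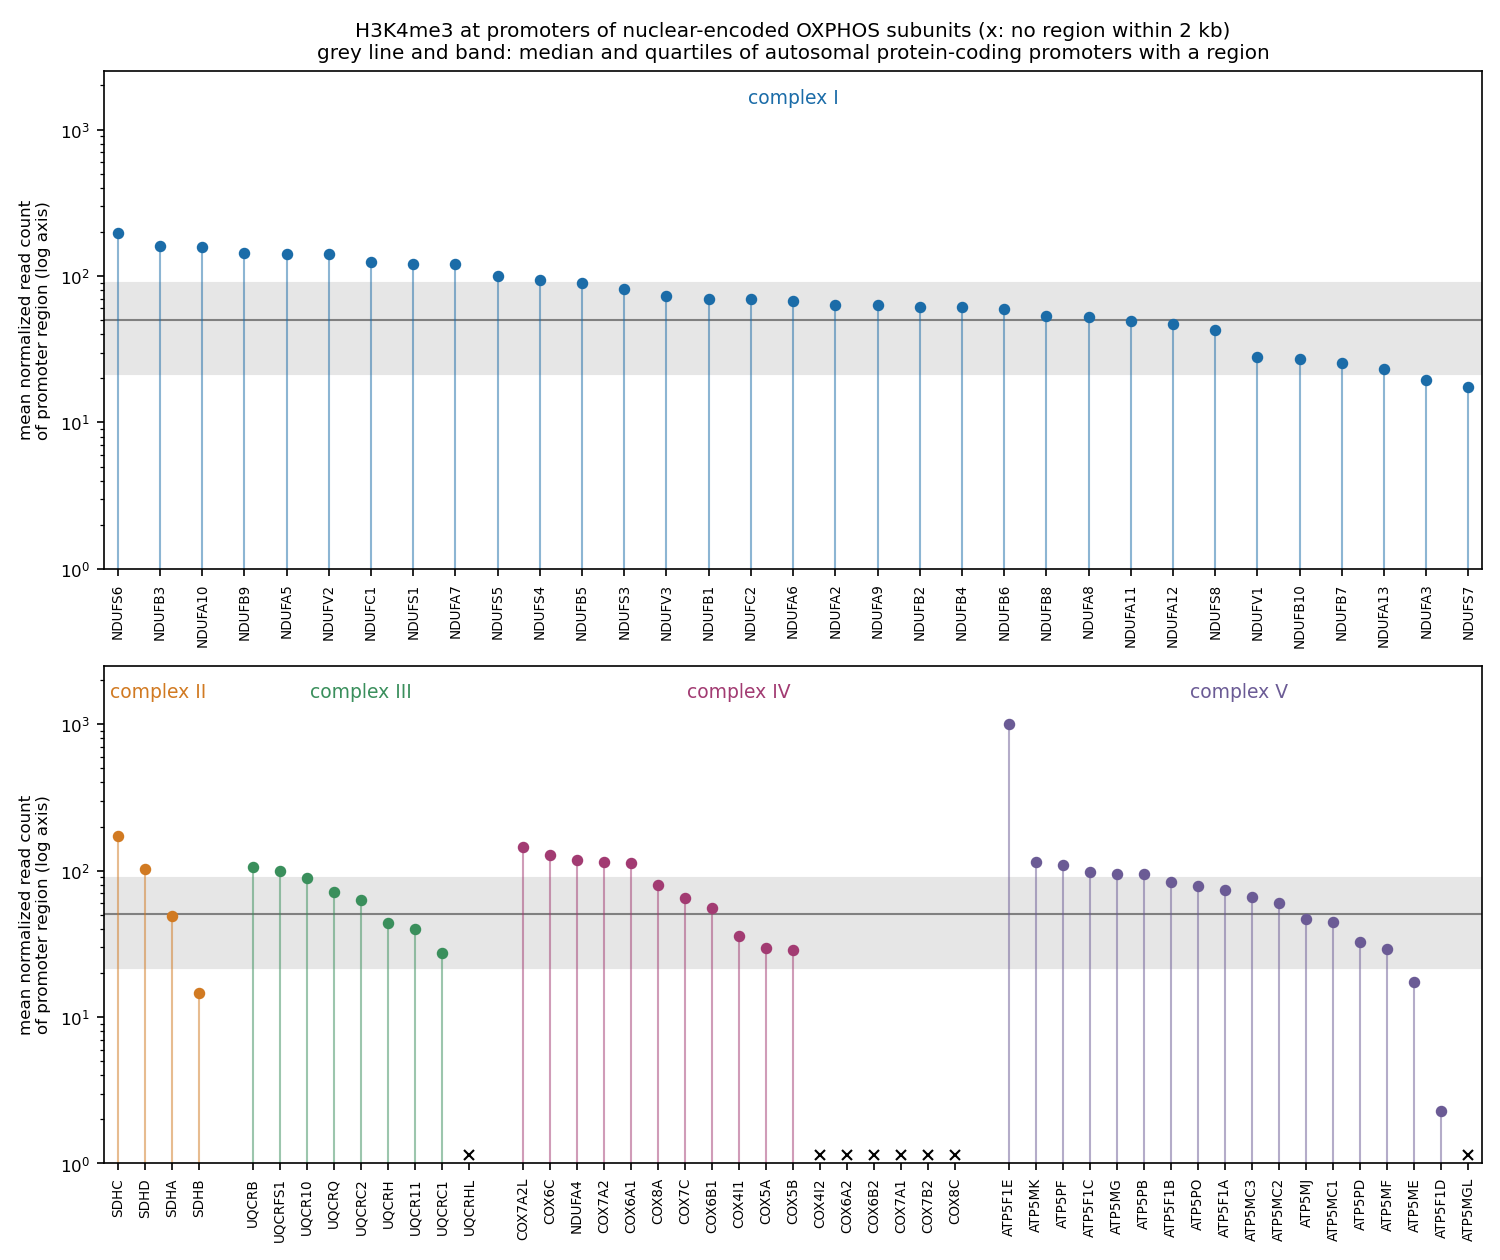
Mean H3K4me3 signal (the authors' mean of normalized read counts over 8 samples, log axis) of the promoter region of 81 of the 82 genes, 1 point per gene, ordered by signal within each complex. The grey line and band are the median (50.2) and quartiles (21.5 to 89.7) of all autosomal protein-coding promoters with a region, and the crosses are the 8 genes without a region. ATP5F1E stands above the others at 1011 and ATP5F1D below them at 2.28.

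**Figure D2:**
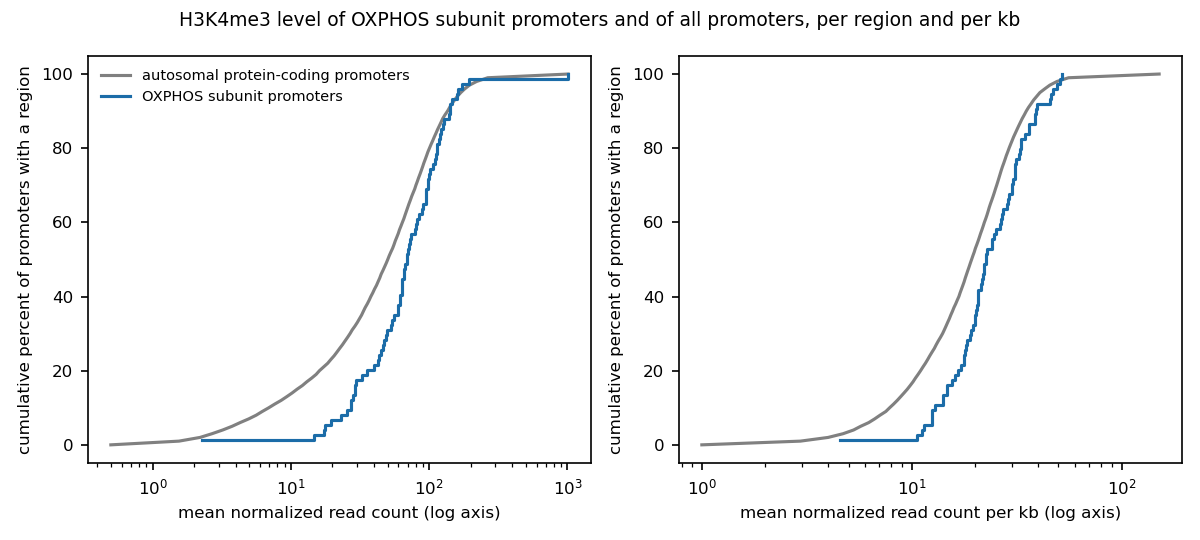
Cumulative percent of promoters with a region against mean H3K4me3 signal (left) and signal per kb of region (right), both on log axes, for the 74 oxidative phosphorylation genes and for all 14167 promoters. The curve of the oxidative phosphorylation genes lies to the right over most of its length, with medians of 69.1 against 50.2 for signal and 22.6 against 19.3 per kb, and the curves cross near the top.

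Complex I takes electrons from NADH through a flavin and a chain of iron-sulphur clusters. Its 34 promoters had a median signal of 68.1 and a median of 21.9 per kb, and 25 lay above the all-promoter median per kb. The nuclear-encoded core subunits, which hold the flavin and the clusters, ranged from 11.4 to 28.5 signal per kb. NDUFV2, an iron-sulphur subunit of the NADH-binding module, had a signal of 140 over a region of 6980 bp (20.1 per kb). NDUFS1, the largest subunit of that module, had 121 (27.4 per kb), and NDUFS3 had 81.3 (28.5 per kb). NDUFS8 had 42.7 (16.1 per kb) and NDUFV1, the flavin-binding subunit, 28.0 (14.0 per kb). NDUFS7, which carries the last cluster before quinone, had 17.5 (11.4 per kb). The 27 accessory genes had a median of 22.1 per kb.

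The highest signals of complex I were at accessory subunits. NDUFS6, which holds a zinc ion in the peripheral arm, had 196 over chr5:1798576-1803564 (39.2 per kb). NDUFB3, of the membrane arm, had 161 over chr2:201068537-201073500 (32.4 per kb), and NDUFA10 had 158 over chr2:240023140-240027143 (39.4 per kb). Per kb, the highest were NDUFA7 (49.2), NDUFB9 (46.0) and NDUFS5 (45.7), at percentiles of 98.0, 97.1 and 97.1 among all promoters. The lowest by signal were NDUFS7 and the accessory subunits NDUFA3, at 19.4 over chr19:54102268-54103816 (12.5 per kb), and NDUFA13, at 23.1 over chr19:19515577-19517356 (13.0 per kb). NDUFB10 had the lowest signal per kb of the complex, 11.2. NDUFB4 had a signal of 61.3, above the all-promoter median, but spread over 4902 bp, which left 12.5 per kb.

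The other accessory genes of complex I fell between these values. NDUFA5, NDUFC1 and NDUFS4 had 36.4, 31.1 and 28.6 signal per kb. NDUFB1, NDUFB5 and NDUFA12 had 31.0, 30.2 and 30.0 per kb, and NDUFV3 had 26.5 per kb in a region that was not at its main start site. A group of 9 genes lay between 20.1 and 22.1 per kb, close to the all-promoter median, namely NDUFA2, NDUFA6, NDUFA8, NDUFA9, NDUFB2, NDUFB6, NDUFB8, NDUFC2 and, among the core subunits, NDUFV2. NDUFA11 had 18.3 per kb and NDUFB7 14.1 per kb.

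Complex II, succinate dehydrogenase, also belongs to the citric acid cycle, and all 4 of its subunits are nuclear. Its 4 promoters differed more from each other than the medians of the complexes did. SDHC, a membrane anchor that binds haem, had a signal of 173 over chr1:161313286-161316608 and the highest signal per kb of all 74 genes, 52.0, at percentile 98.4 among all promoters. SDHD, the other anchor, had 102 over chr11:112085345-112089872 (22.5 per kb). SDHA, the flavoprotein that oxidizes succinate, had 49.0 over chr5:218886-220506 (30.3 per kb). SDHB, the iron-sulphur subunit, had 14.7 over chr1:17052947-17054340 (10.5 per kb). Thus SDHC and SDHB, which sit side by side in the same enzyme, lay near opposite ends of the range. SDHA has near-identical pseudogene copies in the genome and its reads may have been split among them, so that its level is uncertain.

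Complex III, the cytochrome bc1 complex, hands electrons from quinol to cytochrome c. Its 8 promoters with a region had a median signal of 67.0, above that of all promoters, but a median of 19.1 per kb, which was not above it, and 3 of 8 lay above the all-promoter median per kb. UQCRB, a quinone-site subunit, had a signal of 106 (31.1 per kb) and UQCRFS1, the Rieske iron-sulphur protein, 98.7 over chr19:29211241-29214217 (33.2 per kb). UQCR10 had 88.9 over chr22:29765422-29769120 (24.0 per kb). UQCRQ had 70.9 (19.0 per kb) and UQCRC2, a core protein, 63.1 (19.2 per kb). The lowest were the hinge protein gene UQCRH at 43.6 over chr1:46302336-46304741 (18.1 per kb), UQCR11 at 40.1 over chr19:1604399-1606649 (17.8 per kb) and UQCRC1, the other core protein, at 27.3 over chr3:48608158-48609911 (15.6 per kb).

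Complex IV, cytochrome c oxidase, reduces oxygen to water, and its catalytic subunits are mitochondrial. The nuclear subunits surround that core and several exist as isoforms. The 11 promoters with a region had a median signal of 80.1 and a median of 25.3 per kb, and 8 lay above the all-promoter median on each scale. COX7A2L, which acts in the joining of complexes III and IV, had a signal of 145 over chr2:42357997-42362632 (31.3 per kb). COX6C had 128 (47.2 per kb), NDUFA4 had 118 (29.1 per kb) and COX7A2 had 114 (38.6 per kb). COX6A1, COX8A, COX7C and COX6B1 had 33.2, 25.3, 22.9 and 24.7 signal per kb. The lowest were COX4I1 at 35.7 over chr16:85797192-85799213 (17.7 per kb), COX5A at 29.4 over chr15:74936665-74938659 (14.8 per kb) and COX5B at 28.9 over chr2:97645183-97647505 (12.5 per kb). These subunits, COX4I1, COX5A and COX5B, were the only 3 of complex IV with a region that lay below the all-promoter median. For COX4I1 this holds for the chosen region alone, which did not reach the start and was shared with EMC8. Another region on the other side of the start had a signal of 27.2 (10.1 per kb).

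The isoforms of complex IV differed in whether they had a region. COX4I2 is found mainly in lung, COX6A2 and COX7A1 in heart and skeletal muscle, and COX6B2, COX7B2 and COX8C in testis. None of these 6 genes had a region within 2 kb of a start site. From their start sites the nearest region of any kind was 22730 bp away for COX4I2, 14331 bp for COX6A2, 12674 bp for COX6B2, 11395 bp for COX7A1, 20294 bp for COX7B2 and 12531 bp for COX8C. Their broadly expressed partners all had a region, with 17.7 signal per kb at COX4I1, 33.2 at COX6A1, 24.7 at COX6B1, 38.6 at COX7A2, 25.3 at COX8A and 14.5 at COX7B, which is on the X chromosome and outside the gene rule. The promoters of the absent isoforms were not all poor in CpG. In the window from 250 bases before to 50 after the start, the ratio of observed to expected CpG was 0.247 at COX6A2, 0.383 at COX8C and 0.520 at COX7B2, but 0.629 at COX4I2, 0.758 at COX7A1 and 0.799 at COX6B2. Over the 8 genes without a region the median ratio was 0.526, and over the 74 with a region it was 0.857.

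UQCRHL, a copy of UQCRH that lacks introns, had its nearest region 7893 bp away, with a signal of 2.26, while UQCRH itself had 43.6. ATP5MGL, a copy of ATP5MG, had its nearest region 3833 bp away, with a signal of 1.49, while ATP5MG had 94.7. The copies resemble their parent genes in transcribed sequence, and how reads that map to both were treated is not given in the sources used here.

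Complex V, the ATP synthase, has a catalytic head, a rotating ring and stalk, and a stator that holds the head still. Its 17 promoters with a region had a median signal of 73.5 and a median of 22.6 per kb. In the head, ATP5F1A had a signal of 73.5 (26.3 per kb) and ATP5F1B, the catalytic subunit, 84.0 (36.2 per kb). In the central stalk, ATP5F1C had 97.4 (21.6 per kb), ATP5F1D 2.28 (4.56 per kb) and ATP5F1E 1011 (51.1 per kb), so that both extremes of signal among the 74 genes were found among the subunits of the rotating stalk. The c-ring is built from 1 protein encoded by 3 genes, which had 14.7 signal per kb at ATP5MC1, 17.8 at ATP5MC2 and 24.2 at ATP5MC3. Their signals were 44.7, 59.7 and 65.8.

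In the stator, ATP5PF had 110 over chr21:25733700-25737044 (32.8 per kb) and ATP5PB had 94.6 (17.1 per kb). ATP5PO, which ties the stator to the head, had 78.8 (38.5 per kb), and ATP5PD had 32.8 (20.8 per kb). Among the small membrane subunits, ATP5MK had 115 over chr10:103394176-103398448 (26.9 per kb), ATP5MG 94.7 (34.6 per kb) and ATP5MJ 46.5 (22.6 per kb). ATP5MF had 29.1 over chr7:99465051-99466472 (20.5 per kb) and ATP5ME 17.4 over chr4:672869-673918 (16.6 per kb).

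The region at ATP5F1E covered 19782 bp, chr20:59024448-59044230, and its signal of 1011 was the highest of all 14167 promoters. It also covered a start site of PRELID3B, a neighbouring gene for a lipid transfer protein family member, which therefore had the same value. In the whole table of 97545 regions, 2 had a higher signal and 3 were wider. The region reached 11895 bp upstream of the ATP5F1E start and 7887 bp downstream. Its 51.1 signal per kb was at percentile 98.3 among all promoters. The median of the 392 promoters on chromosome 20 was 22.9 per kb. Among the 146 regions within 1 Mb it ranked first. At the other end, the region of ATP5F1D was 500 bp wide at chr19:1242076-1242576, began 325 bp downstream of the start and had a GC content of 68.5%. Its signal was at percentile 2.17 among all promoters.

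The regions were usually placed over the start site. The region chosen for a gene covered its MANE Select start in 69 of 74 cases (93.2%), compared with 63.8% over all promoters. Among genes above the all-promoter median of signal it did so in 50 of 51 cases (98.0%), compared with 81.4%. In these 69 regions the median reach was 1095 bp upstream and 1693 bp downstream, against 1120 and 1696.5 bp over all promoters, and 52 of 69 (75.4%) reached further downstream than upstream, against 71.8%. The median width was 2854.5 bp, against 2496 bp over all promoters. A single region was present at 53 of 74 genes (71.6%), compared with 54.5% over all promoters, and 21 genes had more than 1.

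In the 5 exceptions the chosen region did not reach the start. For NDUFV3 it lay 12292 bp upstream, over the start of WDR4, at an annotated alternative start of NDUFV3, and had a signal of 72.9. The region at the main start of NDUFV3 had 30.7. For SDHA the chosen region began 566 bp downstream of the start, and another with a signal of 28.5 ended 25 bp from it. For COX4I1 the chosen region was 482 bp upstream, and another with a signal of 27.2 began 88 bp downstream. For ATP5ME the chosen region lay 358 bp downstream, and another with a signal of 4.10 lay 362 bp upstream. The distance was 325 bp for ATP5F1D. At SDHA, COX4I1 and ATP5ME regions thus lay on both sides of the start with a gap over it.

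**Figure D3:**
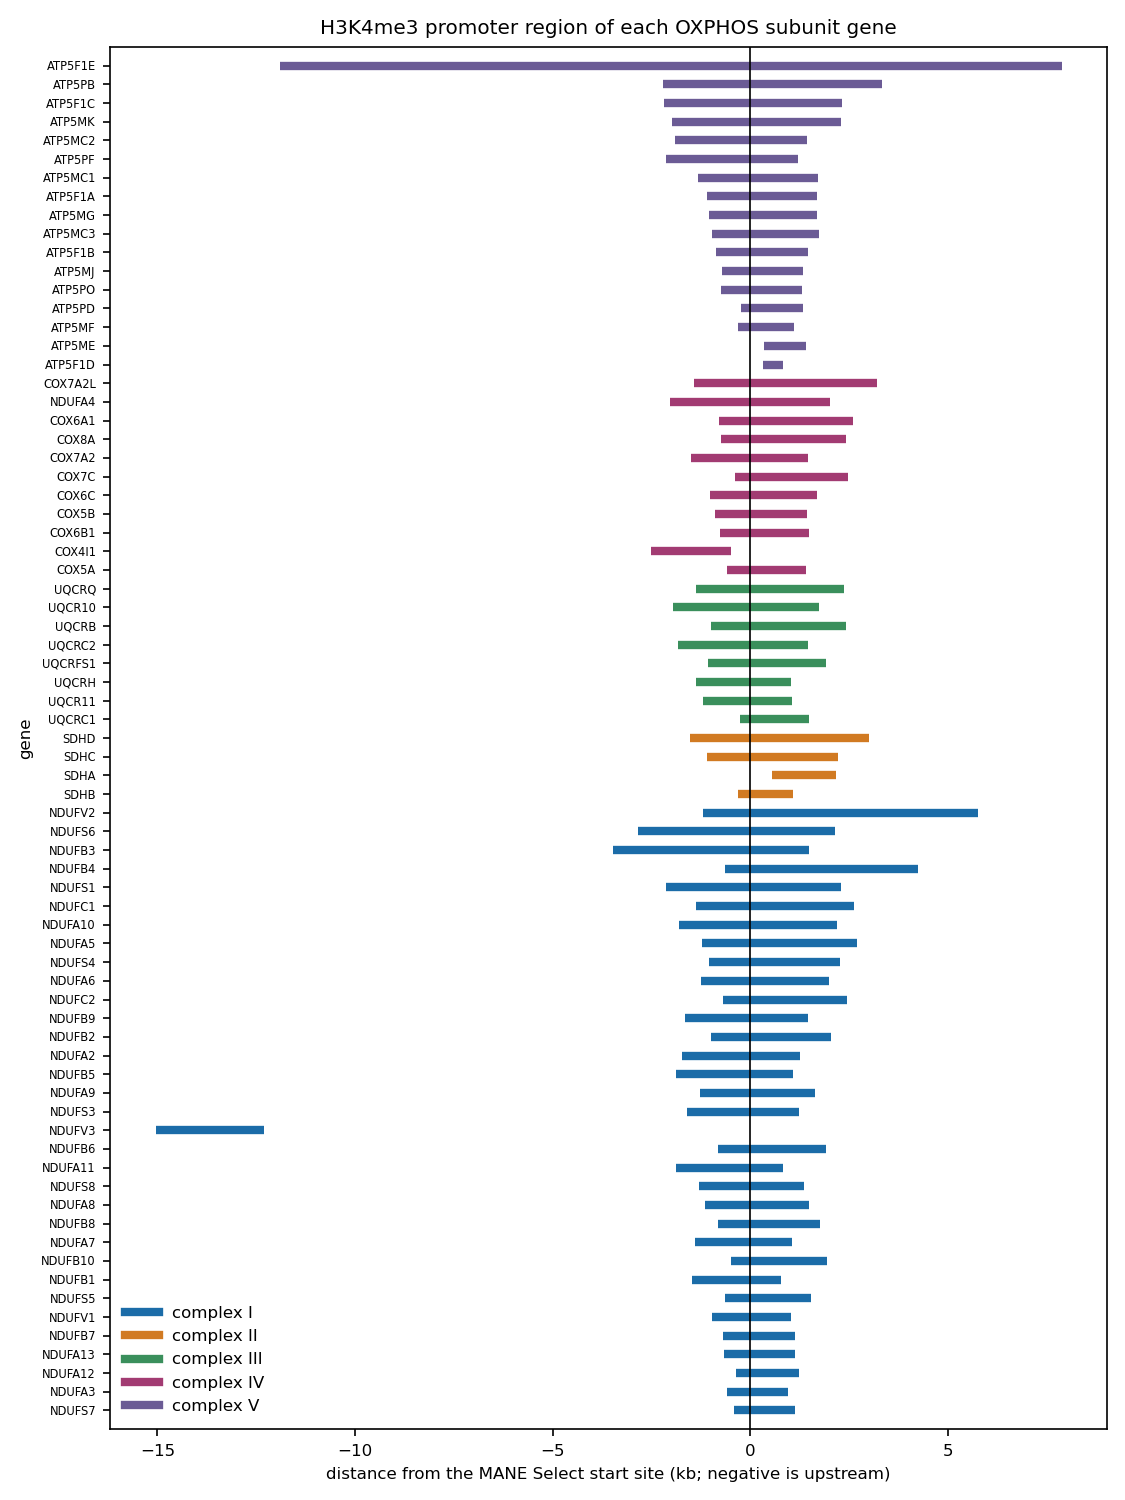
Extent of the H3K4me3 promoter region of 73 of the 74 genes relative to its MANE Select start site (0; negative values are upstream, in kb), 1 bar per gene, grouped by complex and ordered by width. Most bars span the start site, with median reaches of 1095 bp upstream and 1693 bp downstream. ATP5F1E is the widest at 19782 bp, and the NDUFV3 bar lies 12292 bp upstream.

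Many of these genes lay next to another gene. The region of 29 of the 74 (39.2%) was also the one chosen, by the same 2 kb rule, for another protein-coding gene, compared with 22.7% over all promoters. Such a shared region did not have to cover the start site of the other gene, and its signal cannot be told apart between the genes. The number of genes with a shared region was 17 in complex I, 2 in complex II, 3 in complex III, 1 in complex IV and 6 in complex V. A protein-coding neighbour transcribed in the opposite direction from within 1 kb was found at 23 of the 82 genes (28.0%), compared with 9.50% of all genes. ATP5PF started 68 bp from GABPA, which encodes the DNA-binding subunit of an ETS-family regulator of respiratory genes, and both had the same region (32.8 signal per kb). MRPL47 started 156 bp from NDUFB5, TIMM8B 117 bp from SDHD and RPS28 121 bp from NDUFA7, and MRPL36 shared the region of NDUFS6.

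The remaining head-to-head partners in complex I were TATDN1 at 38 bp from NDUFB9, AKAP3 at 63 bp from NDUFA9, KBTBD4 at 104 bp from NDUFS3, MORN5 at 129 bp from NDUFA8, IK at 199 bp from NDUFA2, CPSF2 at 263 bp from NDUFB1, HYCC2 at 330 bp from NDUFB3, EEF1B2 at 451 bp from NDUFS1 and TSSK6 at 677 bp from NDUFA13. In the other complexes they were CCDC127 at 167 bp from SDHA, LRRC41 at 82 bp from UQCRH, GDF9 at 173 bp from UQCRQ, ZMAT5 at 362 bp from UQCR10, EMC8 at 151 bp from COX4I1, PDCD11 at 151 bp from ATP5MK, KIN at 184 bp from ATP5F1C, WDR77 at 208 bp from ATP5PB and MYL5 at 266 bp from ATP5ME. ATP5PD started 256 bp from KCTD2 without a shared region. In other arrangements, NDUFC1 shared its region with NAA15, NDUFA11 with VMAC, NDUFB10 with RPL3L and NDUFA3 with OSCAR. The median signal per kb was 24.0 in the 29 genes with a shared region and 22.1 in the 45 without, and the genes with a head-to-head partner had 22.5 per kb against 22.6 for those without. Over all genes the corresponding values for a head-to-head partner were 24.7 and 18.5 per kb.

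The level differed with base composition. Across the 74 genes, which are not independent replicates, Spearman's rho between GC content of the region and signal per kb was -0.495, and across the 14167 promoters it was -0.351. When all promoters were divided into 3 groups of about equal size at GC contents of 48.0% and 54.9%, the oxidative phosphorylation genes had medians of 29.5, 24.4 and 16.4 signal per kb from the lowest to the highest group (28, 26 and 20 genes). All promoters had 23.6, 21.3 and 13.7, so that the oxidative phosphorylation genes were higher in each group. Signal was also higher in wider regions (rho 0.786 across the 74 genes and 0.877 across all promoters). Signal per kb was higher in wider regions as well (rho 0.385 and 0.480), so that levels per kb were not free of width. The part of base composition and width in the levels was not tested.

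**Figure D4:**
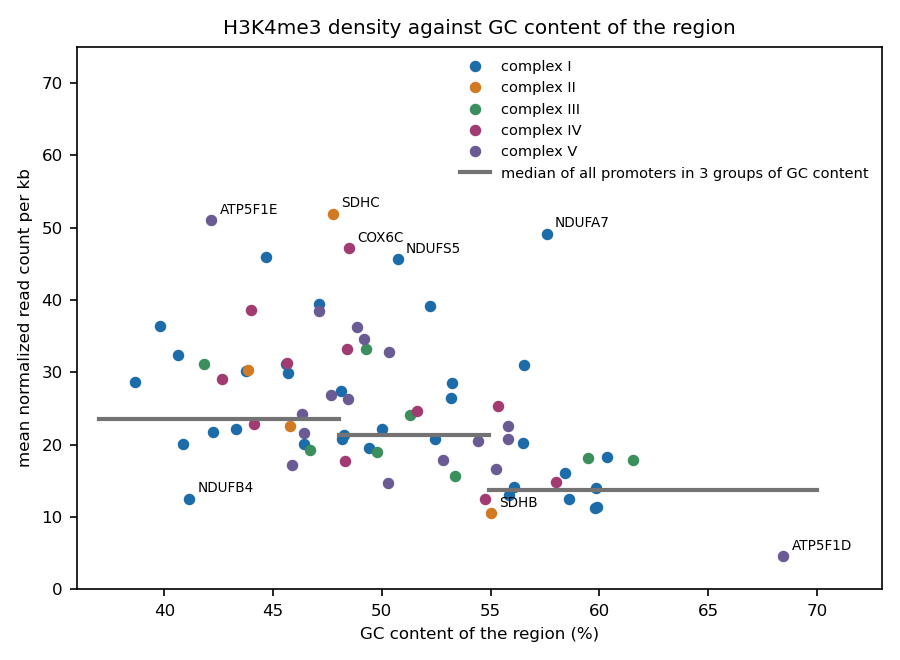
H3K4me3 signal per kb of region against the GC content of the region (%), 1 point per gene for the 74 genes, coloured by complex. Grey lines give the medians of all promoters in 3 groups of GC content of about equal size (23.6, 21.3 and 13.7), and the points tend to lie lower towards the right, with rho -0.495.

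Chromosome 19 held 12 of the 82 genes, 10 with a region. These 10 had a median of 16.0 signal per kb, against 23.4 for the 64 on other chromosomes, and 3 of them lay above the all-promoter median per kb, namely NDUFA7, UQCRFS1 and COX6B1. All promoters of chromosome 19 were lower as well, with 16.3 per kb against 19.6 elsewhere, and the GC content of the regions was 58.1% for the 10 genes against 48.4% for the others. The 3 genes with the lowest signal in complex I, NDUFS7, NDUFA3 and NDUFA13, and the lowest of complex V, ATP5F1D, were all on this chromosome.

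Motifs of known regulators of respiratory genes were counted from 250 bases before to 50 after the MANE Select start of all 82 genes, on both strands. Matches describe letters only and do not show that a factor was bound. The NRF1 motif (GCGCANGCG) was present at 26 of 82 genes (31.7%), against 11.0% of all genes. The ETS motif (CCGGAAG), which the GABP factors recognize, was present at 23 (28.0% against 14.1%). The YY1 motif (AAGATGGC) was present at 15 (18.3% against 4.08%) and the motif of estrogen-related receptors (ERR, CAAGGTCA) at 6 (7.32% against 0.887%). When only genes with a region were counted, on both sides, the shares were 33.8% against 13.9% for NRF1, 31.1% against 17.7% for ETS, 20.3% against 5.06% for YY1 and 8.11% against 0.586% for ERR. General promoter elements had shares close to or below those of all genes. The GC box (GGGCGG) was present at 59.8% against 62.2%, the CCAAT box (CCAAT) at 31.7% against 35.7% and the TATA box (TATAAA) at 6.10% against 9.71%. From 500 bases before to 100 after the start, the GC box was at 73.2% against 69.2% and the CCAAT box at 54.9% against 52.4%, and among genes with a region these were 75.7% against 79.4% and 54.1% against 51.6%.

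**Figure D5:**
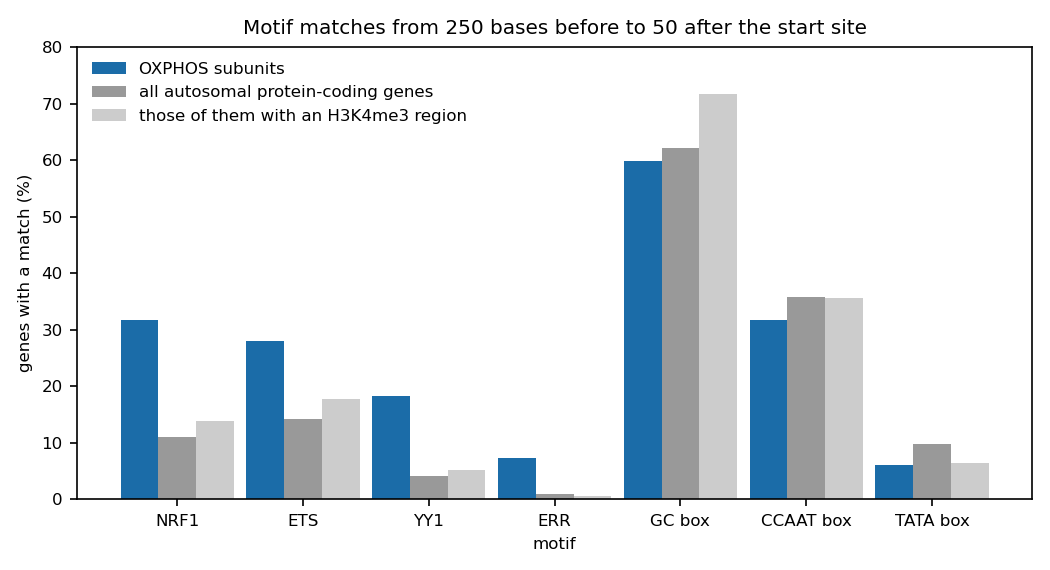
Percent of genes with at least 1 motif match from 250 bases before to 50 after the start site, on either strand, for the 82 oxidative phosphorylation genes, all 18498 autosomal protein-coding genes and the 14167 of these with an H3K4me3 region. The bars for NRF1, ETS, YY1 and ERR are taller in the oxidative phosphorylation genes (31.7%, 28.0%, 18.3% and 7.32%), and those for the GC, CCAAT and TATA boxes are not.

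The counts by complex were small and were not tested. NRF1 was present at 5 of 9 genes of complex III (UQCR10, UQCR11, UQCRB, UQCRC1 and UQCRFS1), at 2 of 4 in complex II, 9 of 34 in complex I, 7 of 18 in complex V and 3 of 17 in complex IV. ETS was present at 7 of 34 genes of complex I, 2 of 4 in complex II, 3 of 9 in complex III, 5 of 17 in complex IV and 6 of 18 in complex V. YY1 was present at 9 of 34, 2 of 4, 1 of 9, 0 of 17 and 3 of 18 in the same order. The 6 genes with an ERR motif were NDUFB9, SDHD, COX6C, COX8A, ATP5MC3 and ATP5MG. Among the 74 genes the median signal per kb was 22.5 with and 22.9 without NRF1, 24.7 with and 22.1 without ETS, and 20.7 with and 22.9 without YY1. Over all promoters the medians were 22.1 and 18.8 for NRF1, 22.8 and 18.5 for ETS, and 23.3 and 19.0 for YY1. Among the 74 genes the median was 25.9 with and 21.7 without the CCAAT box, and over all promoters it was 20.4 and 18.7. The 6 genes with ERR had 29.9 against 21.9 at the others of the 74, while over all promoters genes with ERR had 17.1 and those without 19.3.

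The promoters themselves, over the same window, had a median GC content of 60.7% and a median CpG ratio of 0.847, against 64.0% and 0.782 over all genes. Among genes above the all-promoter median of signal, the CpG ratio was 0.846 against 0.869 over all genes, and among genes with a head-to-head neighbour it was 0.869 against 0.889, so that the direction of the CpG difference depended on the genes compared.

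Related genes were described from lists of their own. All 46 assembly factors of the complexes had a region, with a median of 24.8 signal per kb, and 31 lay above the all-promoter median. BCS1L, which inserts the Rieske protein into complex III, had 43.1 per kb, and SURF1, an assembly factor of complex IV, 9.54. All 13 regulators had a region, with a median of 25.7 per kb. TFAM, which packages mitochondrial DNA and starts its transcription, had 38.8, NRF1 had 22.5 and PPARGC1A, the coactivator PGC-1α, had 20.4, while PPARGC1B had 9.28. All 14 citric acid cycle genes had a region, with a median of 24.4 per kb. Of 21 glycolytic genes 20 had a region, with a median of 15.5 per kb, and 6 lay above the all-promoter median. Among 6 subunit and electron carrier genes that the rule left out, CYCS, which encodes cytochrome c, had 44.7 per kb, and NDUFAB1, CYC1 and the X-linked NDUFA1, NDUFB11 and COX7B had between 7.47 and 17.4.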

How the data were processed

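EndoC-βH3 cells were profiled for H3K4me3 with MINT-ChIP, in 4 samples of each state. The authors aligned paired reads to hg38 with Bowtie2, called peaks with HOMER and normalized read counts per region with DESeq2. How peaks were merged across samples, the counting settings and the removal of duplicates are not given in the sources used here. The signal is the deposited mean of normalized counts over the samples, 1 value per region. The other columns hold the authors' comparison of senescent with non-senescent cells (log2 fold change, its standard error, Wald statistic, p-value and adjusted p-value) and were not used. No count per sample was analysed here, so depth and precision per sample are unknown. The labels give a 4-hydroxytamoxifen dose of 1 mM and the methods another unit.

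Start sites came from GENCODE release 44 and base composition and motifs from hg38. All 97545 regions lay within the hg38 chromosome lengths. Regions were assigned to genes within 2 kb of any start site and divided by width for signal per kb. Coordinates are as the table gives them. Of the 82 genes 65 were found in a RefSeq promoter table, and 59 of these sequences were identical to those read here. The scripts ran in Python 3.11.15 with statsmodels 0.14.6, matplotlib 3.10.9, scipy 1.17.1, pandas 2.3.3 and numpy 2.4.6, and the steps were tested on simulated data. The genes and lists were chosen with earlier results of these data known. The values of 1 complex I gene are not reported here, although counts and medians include it. Genes named with full values were the 3 highest and 3 lowest by signal in each complex, all of complex II, complex I core subunits, isoforms, copies and c-ring genes with their partners, genes without a region and genes with a shared region; others named from the lists were chosen after their values were seen. Alternatives were another window, another choice of region, signal per kb, a minimum signal, the omission of shared regions and a longer promoter window.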

Additional observations from a re-analysis of the deposited data

How the results depend on the processing

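Of 66 values recomputed under alternatives, 62 stayed within 1.5 times the reported value or, for percentages, within its 95% Wilson interval, which covers counting error only. The median signal of the genes with a region (74 as reported) relative to all promoters, reported as 1.38, ranged from 1.17 (per kb) to 1.59 (region nearest the start site). Complex III, reported as 1.34, fell to 0.989 per kb. This fall is counted among the 62, so that staying within 1.5 times does not show that a median stayed above that of all promoters. The share of genes above the median of all promoters was 62.2% of the 82 genes, with genes without a region counted as not above. On the same count 7083 of all 18498 genes lay above. With genes without a region left out, the share was 68.9% of the 74 genes. When shared regions were left out of both groups it became 75.6% of the 45 genes left, against the median of the unshared promoters alone, and against the median of all promoters it was 66.7% of these 45. Neither 45-gene share counts genes without a region. With a window from 500 bases before to 100 after the start, the GC box reached 73.2%, the CCAAT box 54.9% and the TATA box 18.3%, against 69.2%, 52.4% and 18.7% of all genes, since longer windows hold more matches. No paired analysis was possible because the table gives 1 mean over all samples, and for the same reason no sample could be left out in turn. Small differences between genes cannot be resolved without the spread between samples.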
